A study of Mus musculus with 6 samples.

Results

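The 10 genes described here make up the core of class I antigen presentation: the classical heavy chains H2-K1 and H2-D1, the light chain B2m, the peptide transporter genes Tap1 and Tap2, the loading factor gene Tapbp, the inducible proteasome subunits Psmb8, Psmb9 and Psmb10, and the transcriptional activator Nlrc5. They were chosen by name as a list of presentation genes, and all 10 were found among the 26181 genes of the table. All 10 were also among the 15819 genes tested, those averaging 10 normalised counts or more. The values are read counts per gene, scaled by the authors to a common library size, from RNA sequencing of splenic primary CD8+ T cells from wild-type C57BL/6 animals. These were 6 weeks old at the start and then ate either the diet labelled ND or CDAHFD, a choline-deficient, amino acid-defined, high-fat diet used to bring on steatohepatitis, for 7 weeks. Each diet had 3 libraries of 25314988 to 28067393 reads assigned to genes. No transgene or other allele is named in the labels. Nothing in them says that the libraries of a diet came from separate animals, so each p-value reflects only how far these samples scatter, and that scatter could be technical.

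Class I molecules show peptides from inside the cell to CD8+ T cells and are carried by nearly all nucleated cells, T cells included. Proteasomes cut proteins into peptides, TAP moves the peptides into the endoplasmic reticulum, and tapasin with its partner chaperones helps to load them onto a heavy chain bound to beta-2 microglobulin. Interferon gamma raises most of these genes, and NLRC5 is known in mice as an activator of class I genes, with a strong effect in T cells.

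The mRNA of the class I machinery differed little between the diets, and its parts moved in opposite directions. H2-D1, B2m, Tapbp and Nlrc5 rose by 8.13% to 14.9%, whereas Tap1, Psmb8 and Psmb9 fell by 8.93% to 15.5%. H2-K1, Tap2 and Psmb10 did not pass the test. A gene is said to have risen or fallen at an adjusted p under 0.05 (limma on log2(normalised count + 1), Benjamini-Hochberg over all genes tested). The count of 7 called members of 10 stands against a background of 47.1% of all genes tested and 60.9% of the 1871 genes at least as high as the lowest member. By direction, 4 members rose and 3 fell, against 24.6% and 22.5% of all genes tested. None of the 10 changed by more than 1.2-fold, a size exceeded by 24.1% of those 1871 genes. The median log2 fold change of the 10 was 0.02, and that of all genes tested was -0.01.

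Markers of several cell types besides CD8+ T cells were present in these preparations, at levels that differed between the diets. All 12 genes of the CD8 T cell list were detected, and 11 fell (median log2 fold change -0.35). Their sum was 153976 to 158339 normalised counts in ND libraries and 123030 to 127869 in CDAHFD libraries. Apart from Cd8a and Cd8b1, the list holds genes that CD4 T cells also express. All 14 macrophage markers rose, with a summed level of 16348 to 17848 normalised counts in ND libraries and 142579 to 156498 in CDAHFD libraries. Of 10 B cell markers 9 fell and 1 rose, with sums of 26691 to 27772 and 21010 to 22080. Of 9 dendritic cell markers 7 fell and 2 were not called, with sums of 8598 to 9116 and 6548 to 7232. Of 10 erythroid markers 9 rose and 1 fell, and of 10 neutrophil markers 8 rose and 2 were not called. Of 8 plasma cell markers tested 6 rose, 1 fell and 1 was not called. The NK cell list went both ways, with 3 of 9 higher and 3 lower, as did the CD4 T cell list, with 3 of 6 higher and 1 lower, and the endothelial and platelet list, with 3 of 7 tested higher and 1 lower. No marker found in the table was at 0 in all libraries. The part of these cells in the changes below was not tested, and since class I genes are active in all of them, a change in cell makeup and a change of RNA per cell cannot be told apart in these bulk samples.

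The upstream sequences of the heavy chains, B2m and the Psmb9-Tap1 pair are shown because H2-K1 and H2-D1 have closely related promoters and Psmb9 and Tap1, which both fell, share theirs. Sequences are from RefSeq in build GRCm38.p6, each reading 5′ to 3′ on the strand of its gene up to the base before the annotated start, with capitals for matches to the motifs searched. H2-K1 is at chr17:34000348-34000597 (minus strand), H2-D1 at chr17:35262844-35263093 (plus), B2m at chr2:122147437-122147686 (plus), and the stretch between the starts of Psmb9 (minus) and Tap1 (plus) at chr17:34187331-34187555, shown on the plus strand.
H2-K1: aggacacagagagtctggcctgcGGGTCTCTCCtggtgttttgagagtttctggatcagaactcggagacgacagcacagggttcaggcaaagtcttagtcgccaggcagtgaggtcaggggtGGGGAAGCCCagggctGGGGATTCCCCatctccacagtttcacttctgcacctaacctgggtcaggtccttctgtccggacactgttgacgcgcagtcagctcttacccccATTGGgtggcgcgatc
H2-D1: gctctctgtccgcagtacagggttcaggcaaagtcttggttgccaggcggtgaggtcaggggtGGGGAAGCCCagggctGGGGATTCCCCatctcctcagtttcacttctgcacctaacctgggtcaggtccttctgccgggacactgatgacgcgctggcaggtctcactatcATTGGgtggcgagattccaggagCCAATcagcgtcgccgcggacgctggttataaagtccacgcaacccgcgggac
B2m: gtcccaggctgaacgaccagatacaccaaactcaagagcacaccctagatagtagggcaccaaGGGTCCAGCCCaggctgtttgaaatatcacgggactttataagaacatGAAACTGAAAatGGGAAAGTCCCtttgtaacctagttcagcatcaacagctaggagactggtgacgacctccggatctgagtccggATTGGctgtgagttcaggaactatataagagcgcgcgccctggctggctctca
Psmb9-Tap1: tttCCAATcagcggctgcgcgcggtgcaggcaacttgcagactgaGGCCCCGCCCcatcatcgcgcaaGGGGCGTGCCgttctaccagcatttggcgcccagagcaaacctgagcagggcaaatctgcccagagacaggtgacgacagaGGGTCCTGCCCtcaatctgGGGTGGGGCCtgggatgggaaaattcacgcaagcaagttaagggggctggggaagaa

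The motifs were searched on both strands, and matches may overlap each other. CCAAT, the core of the Y box, was in the windows of 6 of the 8 members whose promoters were searched, all but Tap2 and Nlrc5, and in 33.8% of all 32851 promoter windows of 250 bases. The NF-kB pattern, GGG and CC with any 5 bases between them, was in 5 of the 8 and in 45.8% of all windows. The pattern of the interferon-stimulated response element, TTTC repeated after any 2 bases, was in 1, B2m, and in 2.98% of all windows. Only exact matches were counted. The stretch tttcacttct, found in both the H2-K1 and the H2-D1 window, departs from this pattern at its last bases and was not counted. TTCNNNGAA, a STAT pattern, was in 1, Psmb8, and in 7.02%, and TGACGT, a core of the X2 box, was in none of the 8 and in 6.47%. The stretch tgacg, which departs from TGACGT only at the base that follows, lies in each sequence printed above and was not counted. The search therefore does not show that these promoters lack an X2 box. The H2-K1 and H2-D1 windows aligned over 190 bases, of which 174 (91.6%) were identical. The 225 bases between Psmb9 and Tap1 held 1 CCAAT match and 5 matches to the NF-kB pattern. They lie in the windows of both genes, so the member counts above include the same matches for Psmb9 and for Tap1. GENCODE starts H2-D1, Tapbp, Psmb8, Psmb9 and Psmb10, and by a few bases B2m and Tap1, further upstream than RefSeq, so their windows reach into the longer gene models.

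The heavy chains form the peptide-binding groove that T cell receptors read. H2-K1 (ENSMUSG00000061232, chromosome 17, 33996017 to 34000347 in GRCm38) stood at 93375, 89641 and 84570 normalised counts in the ND libraries and at 94210, 91698 and 87096 in the CDAHFD libraries. The diets overlapped, and the log2 fold change was 0.03 (SE 0.04, limma adjusted p = 0.585), with a 95% interval from -0.05 to 0.11. It changed sign to -0.01 without ND replicate 3. H2-D1 (ENSMUSG00000073411, chromosome 17, 35262730 to 35267499) stood at 52663, 50696 and 51017 in ND and at 60117, 59073 and 58169 in CDAHFD libraries. Every CDAHFD library lay above every ND library, as was so in either direction for 54.3% of all genes tested and for 6 of the 10 members. H2-D1 rose by 14.9%, a log2 fold change of 0.20 (SE 0.04, adjusted p = 3.39e-05). That call held in all 17 alternatives. Whether the 2 heavy chains differed in their response was not tested. Of the distinct 50-base words in their annotated transcripts, 9.63% for H2-K1 and 12.8% for H2-D1 also occur in other genes, most often H2-Q10 and H2-Q1, so reads could be shared among copies.

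B2m (ENSMUSG00000060802, chromosome 2, 122147686 to 122153083) encodes beta-2 microglobulin, the light chain that every class I heavy chain needs to fold. Its level was 54464, 60118 and 57132 normalised counts in the ND and 65869, 58392 and 61487 in the CDAHFD libraries. The diets overlapped, since ND replicate 2 lay above CDAHFD replicate 2. B2m rose by 8.13% (log2 fold change 0.11, SE 0.04, adjusted p = 0.0357). This call was lost in 10 of 17 alternatives. Among these were the fits without ND replicate 1 (adjusted p = 0.209), ND replicate 3 (0.0962), CDAHFD replicate 1 (0.148) and CDAHFD replicate 3 (0.073), and edgeR's quasi-likelihood test on whole reads (0.0524). None of its 50-base words occurred in another gene.

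TAP is a pair of subunits, encoded by Tap1 and Tap2, that pumps cytosolic peptides into the endoplasmic reticulum. Tap1 (ENSMUSG00000037321, chromosome 17, 34187553 to 34197225) had 12828, 12734 and 12248 normalised counts in the ND libraries and 10178, 10786 and 10982 in CDAHFD libraries. The diets did not overlap, and Tap1 fell by 15.5% (log2 fold change -0.24, SE 0.04, adjusted p = 8.38e-06), the largest change among the 10, with the same call in all 17 alternatives. Tap2 (ENSMUSG00000024339, chromosome 17, 34203527 to 34216321) stood at 5135, 4872 and 4570 in ND and at 4539, 4680 and 4340 in CDAHFD libraries, which overlapped. Its log2 fold change was -0.10 (SE 0.04, 95% interval -0.20 to -0.01), and it missed the threshold with an adjusted p of 0.0591. Tap2 passed without ND replicate 3 (adjusted p = 0.0172) and without CDAHFD replicate 2 (0.0413), as well as with equal totals (0.0223) and sample weights (0.0457). Of its exon bases 14.1% overlap Gm15821 on the other strand, which averaged 72.4 and 89.2 normalised counts.

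Tapbp (ENSMUSG00000024308, chromosome 17, 33915899 to 33929292) encodes tapasin, which tethers empty class I molecules to TAP and edits their peptides. It had 8954, 9096 and 9167 normalised counts in the ND libraries and 9811, 9988 and 9874 in CDAHFD libraries. The lowest CDAHFD library exceeded the highest ND library, and the rise was 9.03% (log2 fold change 0.12, SE 0.04, adjusted p = 0.00685). Without trend and robust estimation the adjusted p was 0.051. Tapbp shares 904 exon bases with Gm19412 on the other strand, which averaged 0.629 normalised counts in ND and 0 in CDAHFD libraries. It also shares 149 exon bases with Zbtb22 on the same strand, which averaged 965 and 869, so reads from those bases could belong to either gene.

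Psmb8, Psmb9 and Psmb10 encode the inducible catalytic subunits that turn a standard proteasome into an immunoproteasome. Psmb8 (ENSMUSG00000024338, chromosome 17, 34197721 to 34201454) had 6571, 6481 and 6141 normalised counts in the ND libraries and 6105, 5759 and 5617 in CDAHFD libraries. The groups lay apart by a narrow margin, and Psmb8 fell by 8.93% (log2 fold change -0.14, SE 0.04, adjusted p = 0.009). That call was lost without ND replicate 1 (adjusted p = 0.0557), without CDAHFD replicate 3 (0.0672) and without trend and robust estimation (0.104). Of its exon bases 14.7% overlap Gm20496 on the other strand, which averaged 30.7 and 45.5 normalised counts. Psmb9 (ENSMUSG00000096727, chromosome 17, 34181987 to 34187764) stood at 4779, 4702 and 4526 in ND and at 3962, 4228 and 4126 in CDAHFD libraries. It fell by 12.1% without overlap (log2 fold change -0.19, SE 0.04, adjusted p = 4.78e-04), with the same call in all 17 alternatives. Psmb10 (ENSMUSG00000031897, chromosome 8, 105935735 to 105938444) was the steadiest of the 10, at 3265, 3240 and 3211 in ND and 3260, 3269 and 3242 in CDAHFD libraries. Its log2 fold change was 0.01 (SE 0.04, adjusted p = 0.892) with a 95% interval from -0.08 to 0.09, and with equal totals it was -0.01.

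The 3 members that fell are neighbours. Psmb9, Tap1, Psmb8 and Tap2 lie in this order within 34335 bases of chromosome 17, between the class II genes, while Psmb10, Nlrc5 and B2m are on other chromosomes. Psmb9 and Tap1 are read in opposite directions from the stretch printed above, and their GENCODE models share 212 exon bases on opposite strands. Those bases are 5.79% of the Psmb9 and 3.87% of the Tap1 exon bases. The strand setting of the counting is not given in the sources used here, so reads from those bases cannot be assigned to either gene with certainty. Tap2, which closes the cluster, had a negative fold change that did not pass the test.

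Nlrc5 (ENSMUSG00000074151, chromosome 8, 94434356 to 94527272) encodes a nucleotide-binding protein that joins the factors bound at class I promoters. It had 13088, 12691 and 13368 normalised counts in the ND libraries and 13569, 14722 and 14675 in CDAHFD libraries. The groups did not overlap, although CDAHFD replicate 1 lay close to the highest ND library. Nlrc5 rose by 9.7% (log2 fold change 0.13, SE 0.04, adjusted p = 0.0072). The call was lost without ND replicate 2 (adjusted p = 0.0532), without CDAHFD replicate 2 (0.053) and without trend and robust estimation (0.101). Among the other members H2-D1, B2m and Tapbp rose, Tap1, Psmb8 and Psmb9 fell, and H2-K1, Tap2 and Psmb10 did not pass the test. The part of Nlrc5 in these results was not tested.

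**Figure D1:**
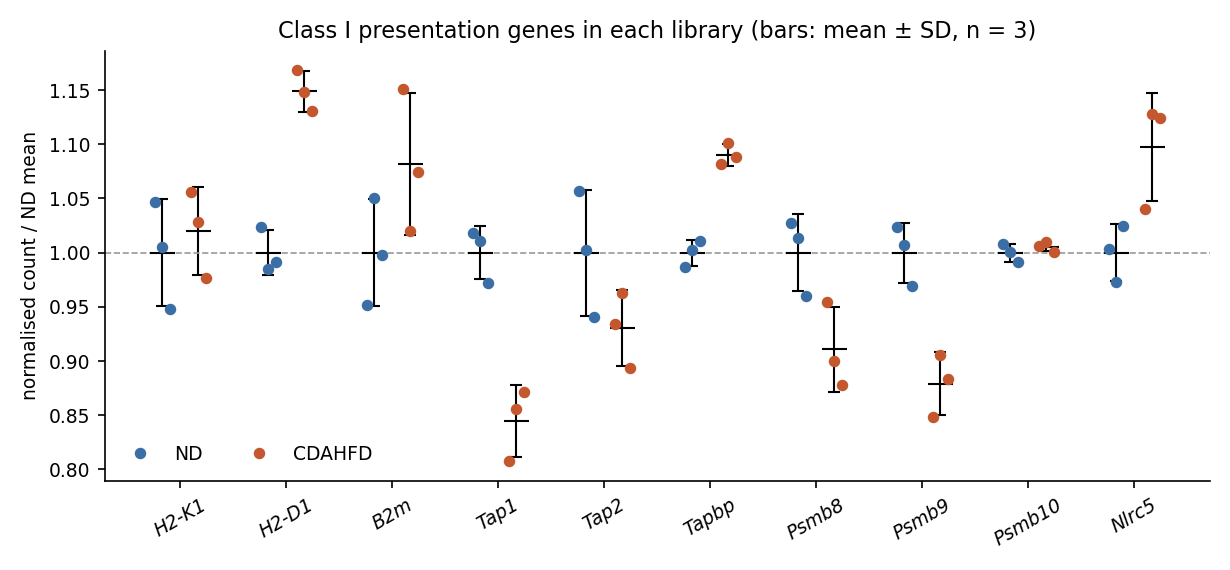
Normalised count of each of the 10 genes in every library, divided by the gene's ND mean (vertical axis, no unit), with blue points for the 3 ND and orange points for the 3 CDAHFD libraries and bars for mean ± SD. H2-D1, Tapbp and Nlrc5 lie above and Tap1, Psmb8 and Psmb9 below their ND libraries without overlap, and Psmb10 stays level.

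Levels of different genes were compared per kilobase of merged exon in ND libraries. B2m was highest at 66556 ± 3289 normalised counts per kilobase (SD, n = 3), followed by H2-K1 at 30359 ± 1504 and H2-D1 at 19953 ± 409. The others lay far lower, from Tapbp at 2501 ± 29.9 and Tap1 at 2302 ± 56.8 down to Tap2 at 1285 ± 74.8 and Psmb9 at 1276 ± 35.3. Between these stood Psmb10 at 1900 ± 15.8, Psmb8 at 1892 ± 67.2 and Nlrc5 at 1536 ± 40.1. Psmb10 and Psmb8, like Tap2 and Psmb9, differed by less than their spread. Per kilobase of the longest coding transcript the first 3 kept their order, at 66556, 55093 and 24481, whereas Psmb9 moved up to 3453 and Tapbp stood at 3131, so the order of the lower genes depends on which transcripts are used.

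Each inducible subunit takes the place of a constitutive one, Psmb8 for Psmb5, Psmb9 for Psmb6 and Psmb10 for Psmb7, and the ratios of the pairs overlapped between the diets. With 3 libraries against 3 the exact permutation test cannot go below p = 0.1, so no ratio could pass the threshold whatever its size. Psmb8 to Psmb5 had a log2 ratio per exon length of 0.54 ± 0.08 in ND and 0.46 ± 0.04 in CDAHFD libraries (SD, n = 3). The exact two-sided permutation test gave p = 0.3 (adjusted over 3 ratios p = 0.45). Psmb9 to Psmb6 had log2 ratios of 0.58 ± 0.04 and 0.51 ± 0.12 (exact permutation p = 0.5, adjusted p = 0.5). Psmb6 itself stood at 1599 normalised counts in ND and 1476 in CDAHFD libraries and did not pass the test (limma adjusted p = 0.0625). Without CDAHFD replicate 1 the log2 difference of this ratio shrank from -0.07 to -0.0013.

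Psmb10 to Psmb7 had log2 ratios of 2.56 ± 0.07 in ND and 2.92 ± 0.31 in CDAHFD libraries (exact permutation p = 0.3, adjusted p = 0.45). CDAHFD replicate 1, at 2.57, lay among the ND libraries, while CDAHFD replicates 2 and 3, at 3.15 and 3.05, lay above all of them. Without CDAHFD replicate 1 the log2 difference grew from 0.37 to 0.54. Psmb7 carried this spread, at 1101, 1165 and 1049 normalised counts in ND and 1104, 738 and 784 in CDAHFD libraries (log2 fold change -0.36, SE 0.17, adjusted p = 0.16). The inducible subunit was the higher of each pair in every library. By how much depends on the transcripts counted: in ND libraries Psmb8 to Psmb5 was 1.46 per merged exon length and 3.02 per longest coding transcript, Psmb9 to Psmb6 was 1.49 and 1.72, and Psmb10 to Psmb7 was 5.88 and 2.59. Psmb5 shares 54.1% of its 50-base words with other genes, mostly Gm3375, so its counts are uncertain.

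**Figure D2:**
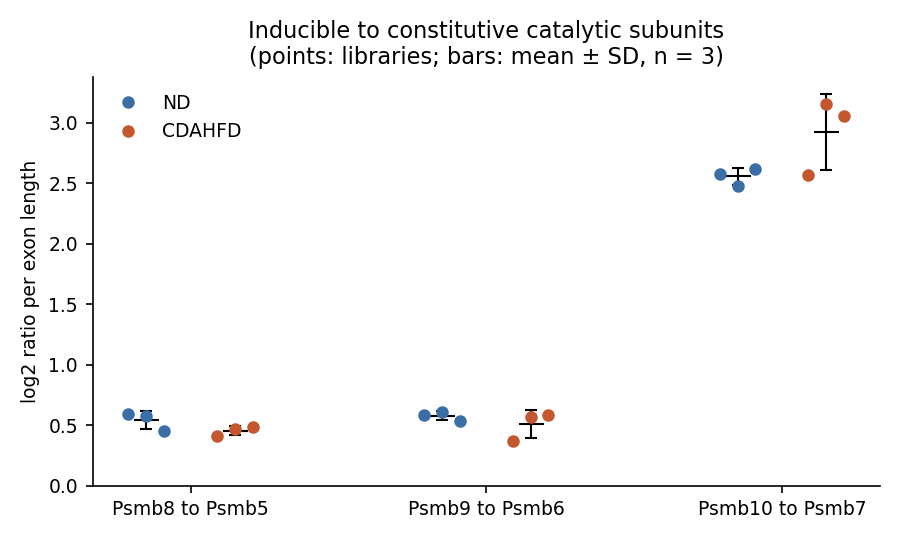
Log2 ratio, per merged exon length, of each inducible proteasome subunit to the constitutive subunit it replaces, in each ND (blue) and CDAHFD (orange) library, with bars for mean ± SD. The diets overlap in all 3 ratios, and the Psmb10 to Psmb7 ratio of CDAHFD replicate 1, at 2.57, sits with the ND libraries.

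Among the other proteasome genes, most subunits of the core fell, while most genes of the remaining lists did not pass the test. The counts stand against 22.5% of all genes tested that fell. Of the other 11 subunits of the 20S core, the barrel in which proteins are cut, 9 fell and 2 did not pass the test (median log2 fold change -0.22), and 0 of the 3 constitutive catalytic subunits were called. Psma2 fell from 2591 ± 184 to 2035 ± 102 normalised counts (SD, n = 3), Psmb3 from 2255 ± 81.1 to 1840 ± 33.8, Psmb4 from 3155 ± 154 to 2569 ± 129 and Psma5 from 1463 ± 49.9 to 1159 ± 78.1. Among 10 activators and assembly factors 3 fell, namely Psme1, a subunit of the PA28 cap, from 7719 ± 446 to 6681 ± 83.3, the maturation factor Pomp from 2224 ± 138 to 1830.3 ± 57.8, and the assembly chaperone Psmg2 from 728 ± 36.8 to 627 ± 36.5. Of 18 genes of the 19S particle, which unfolds proteins for the core, 6 fell and 12 did not pass the test (median -0.08). The lowest adjusted p among them was that of Psmd8, from 2860 ± 53 to 2287 ± 114, followed by Psmd13, from 2118 ± 15.8 to 1853 ± 17.9. Psmd3 fell from 3108 ± 61.7 to 2817 ± 66.7 and Psmd6 from 1763 ± 102 to 1598 ± 81.3. None of these proteasome genes rose. Without CDAHFD replicate 1, 2 constitutive subunits and 5 activators or assembly factors were called lower, and without ND replicate 2 only 3 genes of the 19S particle were. Psmg2 was not called without ND replicate 2 (adjusted p = 0.0702) or CDAHFD replicate 3 (0.0704), nor Psmd6 without ND replicate 1 (0.094), ND replicate 2 (0.173) or CDAHFD replicate 2 (0.183).

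Genes of peptide loading in the endoplasmic reticulum were called higher in part. Of 14 genes of peptide loading and trimming, 6 were higher, 1 lower and 7 not called (median log2 fold change 0.08), against 24.6% of all genes tested that rose. The 4 with the smallest adjusted p all rose. Canx, the lectin chaperone calnexin that holds new heavy chains, rose from 6566 ± 228 to 9621 ± 534 normalised counts (adjusted p = 9.95e-12), which is 0.55 ± 0.04 (SE) on the log2 scale. Calr, its soluble relative in the loading complex, rose from 11395 ± 414 to 15239 ± 636 (log2 fold change 0.42). Pdia3, the oxidoreductase ERp57 of that complex, rose from 8214 ± 154 to 11256 ± 588 (log2 fold change 0.45). Hsp90b1, a general chaperone of secreted proteins, rose from 7896 ± 184 to 12215 ± 961. Among those that did not pass, named after their values were seen, were the trimming peptidase Erap1, at 5609 and 5399, and the tapasin relative Tapbpl, at 2925 and 2811 (adjusted p = 0.282 and 0.295). Plasma cells are rich in such chaperones, and their markers summed to 5095 to 5314 normalised counts in ND and 44223 to 46033 in CDAHFD libraries, but the part of these cells in the rises was not tested. Of the 8 cytosolic peptidases that trim or destroy peptides, 1 rose, 2 fell and 5 were not called. Over all genes tested 24.6% rose and 22.5% fell. Lap3 rose from 817 ± 20.1 to 1644 ± 32.8, while Blmh fell from 1654 ± 101 to 1257 ± 41.8 and Dpp3 from 2169 ± 49.1 to 1862 ± 48.3.

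**Figure D3:**
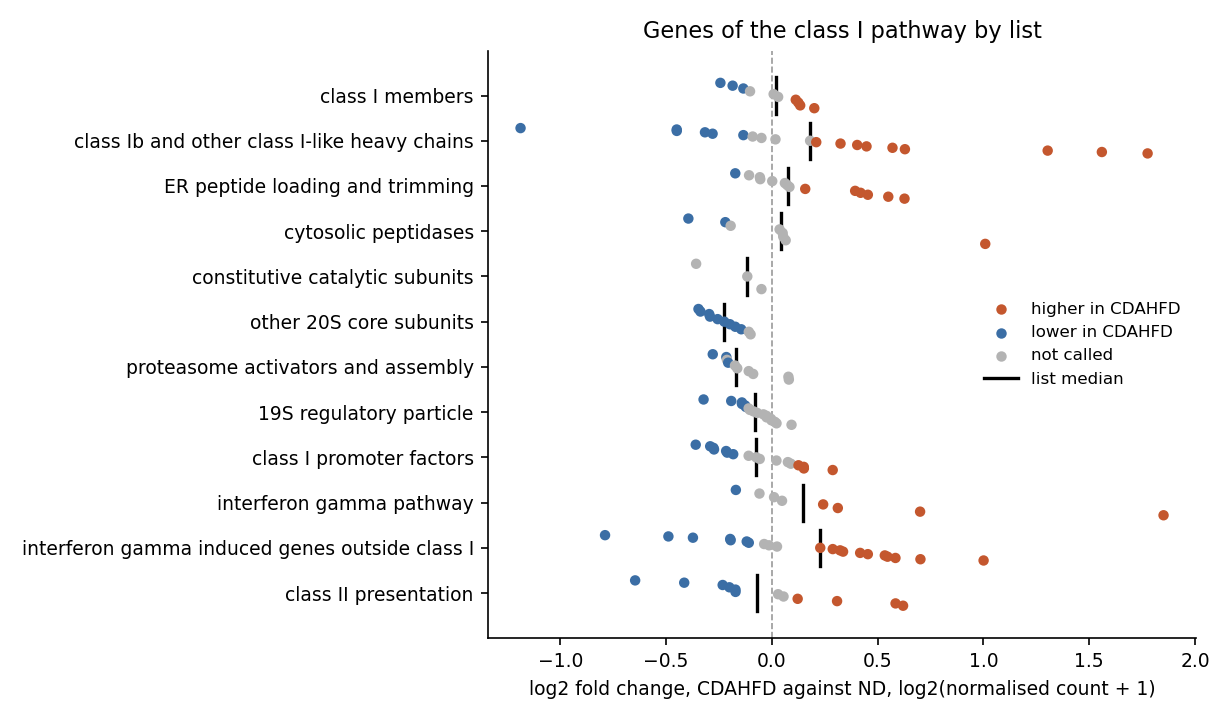
Log2 fold change of CDAHFD against ND (horizontal axis, log2(normalised count + 1) scale) for each tested gene of the lists, with orange for genes called higher, blue for genes called lower, grey for genes not called and a black bar for the list median. The 20S core list lies wholly below 0, and the 10 members lie between -0.24 and 0.20.

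The wider class I family held larger changes in both directions, with log2 fold changes from -1.19 to 1.78 among the genes tested. The lowest value was that of a gene not named here, as the H2-Q and H2-T genes went down only to -0.13 and -0.45. Of 29 nonclassical and class I-like heavy chain genes listed, 23 were found and 19 tested, of which 9 were higher, 6 lower and 4 not called (median log2 fold change 0.18). The background was 24.6% of all genes tested that rose and 22.5% that fell. Hfe, an iron-regulating relative, rose from 616 ± 31.4 to 1817 ± 22.2 normalised counts (adjusted p = 2.67e-19), which is 1.56 ± 0.06 (SE) on the log2 scale. Fcgrt, the neonatal Fc receptor that recycles antibody and albumin, rose from 1492 ± 36.1 to 3682 ± 13, by 147%. H2-Q10, known as a secreted class I molecule of the liver, rose from 503 ± 25.6 to 1730 ± 173, or 1.78 ± 0.07 (SE) on the log2 scale. Macrophages express Fcgrt and Hfe. The macrophage sum of these libraries is given above, and the part of macrophages in these rises was not tested.

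After the values were seen, the H2-Q and H2-T genes were set apart and are described without a test of the split. Of 6 H2-Q genes tested 4 rose, among them H2-Q6, from 12305 ± 431 to 18260 ± 226 normalised counts, and H2-Q7, from 19721 ± 207 to 24706 ± 1051, which encode forms of Qa-2. H2-Q4 fell from 11416 ± 454 to 10391 ± 80.4. All 4 H2-T genes tested fell. They include H2-T23, which encodes Qa-1, the ligand of CD94-NKG2A, from 12176 ± 148 to 9779 ± 199, and H2-T22, a ligand of some gamma delta T cell receptors, from 7066 ± 160 to 5174 ± 168. H2-T10 fell from 2093 ± 32.3 to 1723 ± 18.1 and H2-T24 from 1711 ± 23 to 1253 ± 35.3. Copies are close: 50.4% of the 50-base words of H2-T10 and 53.5% of those of H2-T22 occur in other genes, mostly in each other. For H2-Q6 the share was 35%, most often with H2-Q7, and for H2-Q7 it was 26.5%, most often with H2-Q10. H2-Q10 shared 19.1% of its words, most often with H2-Q7, so reads could be shared among these copies. H2-M3, which presents formylated peptides, stood at 1804 and 1825 (adjusted p = 0.808). Few reads were found for H2-T3 (7 in ND and 4 in CDAHFD libraries), H2-Bl (11 and 3) and H2-M10.1 (0 and 3).

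**Figure D4:**
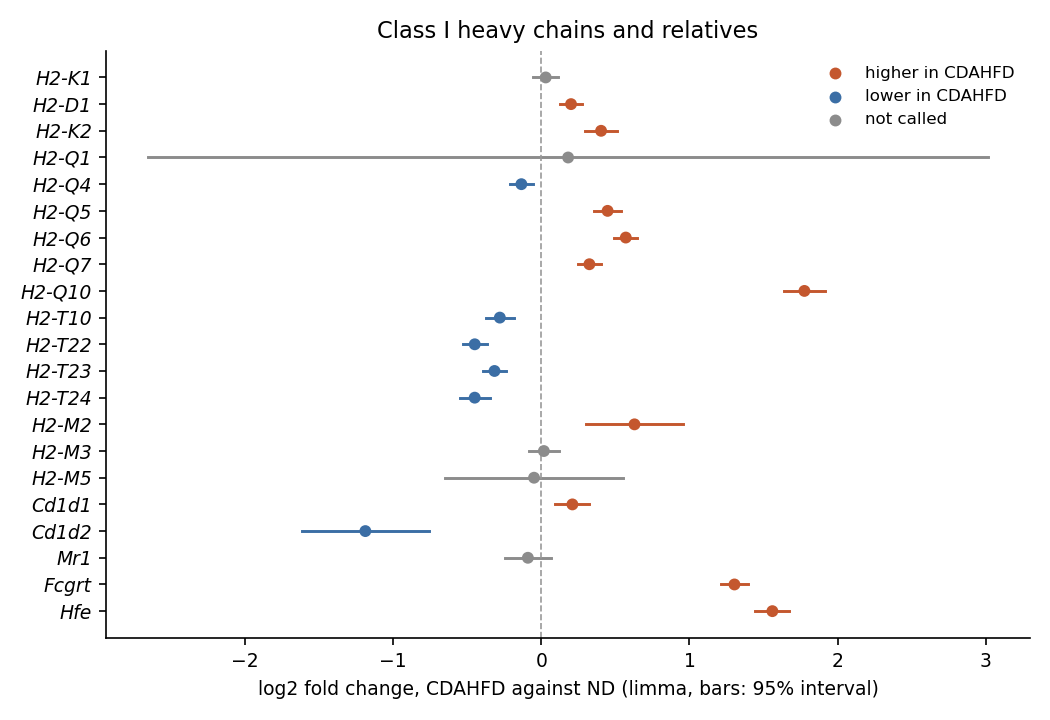
Log2 fold change of CDAHFD against ND for H2-K1, H2-D1 and the tested nonclassical and class I-like heavy chains, with 95% intervals from limma and the same colours for genes called higher, lower or not called. The 4 H2-T genes lie below 0, H2-Q10, Hfe and Fcgrt lie above 1, and H2-Q1, with 50 and 46 reads, has a wide interval.

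Factors that act at class I promoters had no common direction. Of 17, 4 were higher, 7 lower and 6 not called (median log2 fold change -0.07). Of all genes tested, 24.6% rose and 22.5% fell. All 3 subunits of the RFX complex, which binds the X box that NLRC5 needs, fell, although they were named after their values were seen: Rfx5 from 936 ± 20.7 to 774 ± 53.7, Rfxap from 651 ± 44.9 to 561 ± 24.4 and Rfxank from 594 ± 12.5 to 523 ± 3.29 normalised counts. Of the NF-Y subunits, which bind CCAAT, Nfya rose from 2253 ± 45.8 to 2751 ± 82, whereas Nfyb fell from 1248 ± 37 to 1032 ± 36.9. Ciita, the class II relative of Nlrc5, fell from 3959 ± 25.5 to 3088 ± 202, and Irf8, an interferon-regulated factor of B cells and dendritic cells, fell from 7515 ± 287 to 6137 ± 113. Most B cell and dendritic cell markers fell and macrophage markers rose in the same libraries. The part of these cells in the changes of the promoter factors was not tested.

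The interferon gamma pathway was higher at its ligand and at 1 receptor chain. Ifng rose from 32.4 ± 6.62 to 119 ± 16.1 normalised counts (97 and 359 reads over the 3 libraries, adjusted p = 4.98e-09), and Ifngr1 rose from 7042 ± 277 to 11440 ± 270, by 62.5%. The feedback inhibitor gene Socs3 rose from 2261 ± 124 to 2804 ± 65.9, and the kinase gene Jak2 fell from 5730.1 ± 159 to 5092 ± 149. Over the 8 genes of the pathway 4 were higher, 1 lower and 3 not called (median 0.14), and without CDAHFD replicate 1 the number that fell was 2. Of 21 interferon gamma induced genes outside class I presentation, 11 were higher, 7 lower and 3 not called (median 0.23), with 4 falling without CDAHFD replicate 3. The counts of both lists stand against 24.6% of all genes tested that rose and 22.5% that fell. Tgtp2 rose from 1137 ± 78.4 to 2275 ± 141, Gbp3 from 999 ± 57.4 to 1498 ± 84.6 and Gbp8 from 2827 ± 25.5 to 3874 ± 200.1, while Gbp9 fell from 10682 ± 77.7 to 6187 ± 323 (adjusted p = 1.2e-15). These GTPases of cell-autonomous defence have close paralogues, so their counts may be split. Macrophages respond to and express many of these genes, and the part of the macrophage sum was not tested.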

How the data were processed

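RNA was sequenced from splenic CD8+ T cells of 3 ND and 3 CDAHFD samples. The genome build was mm10, per the submitters' processing notes. Aligner, counter, strand setting and annotation are not given in the sources used here. Per the labels' protocols a whole-RNA or an mRNA kit was used, without saying for which library. The authors deposited 1 table of signal values, gene read counts divided by a size factor per library. Columns spelled CDHFD were matched to the CDAHFD samples, the only other group. Whole reads were recovered from the step size of each column (100% of values within 0.001 of a whole number), and the factors matched median-of-ratios factors to 2.66e-15.

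The 15819 genes averaging 10 normalised counts or more were tested with limma 3.58.1 in R 4.3.3 on log2(normalised count + 1), a scale that understates changes of low genes, with trend and robust estimation and diet as the term. Calls needed an adjusted p under 0.05. The fit was first checked on simulated counts, where 36 of 50 genes changed by 1.3-fold were recovered and 4 of 174 calls were false. That simulation changed 200 of 15819 genes, evenly up and down, and gave all genes the same scatter. In the real data 7449 genes were called, so the share of false calls there was not measured. Changes as small as those of the members were not simulated. The whole reads went into edgeR 4.0.16 (7489 genes called) and DESeq2 1.42.0 (6755 called) as alternatives. Between libraries of 1 diet, counts differed by 2.85 to 6.16 times read sampling (chi-square per gene), so no library repeated another.

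Symbols came from a table that matched 26147 of 26181 IDs. Coordinates, merged exon lengths and transcripts were taken from GENCODE M21 for mouse, made on that build. The members and lists were chosen with earlier results of these data known. Named are all members, up to 4 called genes per list with the smallest adjusted p, and further genes picked after their values were seen. Exact permutation tests compared the subunit ratios, two-sided. Alternatives were pseudocounts of 0.5 and 5, no minimum mean or one of 50, equal totals, trimmed mean of M-values scaling, no trend or robust estimation, sample weights, edgeR, DESeq2, a replicate block and each library left out in turn.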

Additional observations from a re-analysis of the deposited data

How the results depend on the processing

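Over 17 alternatives, H2-D1, Tap1 and Psmb9 kept their call and direction, with log2 fold changes of 0.18 to 0.22, -0.27 to -0.21 and -0.21 to -0.16. Reversed signs were found for H2-K1 without ND replicate 3 (-0.0085, against up to 0.063 without ND replicate 1) and Psmb10 with equal totals (-0.012), neither called. Without trend and robust estimation 1 member was called higher in place of 4, 0 loading genes lower in place of 1, 4 of the 20S core in place of 9, 3 of the 19S particle in place of 6, 2 promoter factors higher in place of 4, and 4 interferon gamma induced genes lower in place of 7. With equal totals 1 constitutive subunit and 5 activators or assembly factors were lower (in place of 0 and 3). Sample weights gave 2 constitutive subunits lower and edgeR 1, and DESeq2 gave 3 genes of the 19S particle. Leaving out 1 library gave 0 to 1 loading genes, 0 to 2 constitutive subunits, 7 to 11 genes of the 20S core, 2 to 5 activators or assembly factors, 3 to 7 genes of the 19S particle, 1 to 2 interferon gamma pathway genes and 4 to 7 interferon gamma induced genes called lower. Same-numbered libraries did not deviate together (correlations 0.04, -0.05 and 0.06), and differently numbered ones had correlations from -0.09 to 0.05. No sign of pairing by number was seen, though 3 libraries per diet cannot exclude it. With the replicate block 7250 genes were called in place of 7449, B2m had an adjusted p of 0.0668, 1 constitutive subunit was lower, and no other count or call given here moved past its limit. The median of all genes lay between -0.04 and 0.00 under these settings. Median-of-ratios and trimmed-mean scaling hold it near 0 by design, so this says little about the scaling. With equal totals it was -0.04 in place of -0.01. There B2m was not called (limma adjusted p = 0.0711), and Tap2 was called lower (0.0223). Depth was not the limit for the members, the lowest of which had 9713 reads over the 3 ND libraries.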

Other observations

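Class II presentation genes, which T cells of mice hardly express, were abundant in the same preparations and also moved in both directions. Cd74, the class II invariant chain, stood at 50816 ± 1569 normalised counts in ND libraries, near the level of H2-D1 there, and rose to 55296 ± 2052 (SD, n = 3, log2 fold change 0.12, limma adjusted p = 0.01). Of 12 class II presentation genes tested, 4 were higher, 6 lower and 2 not called (median log2 fold change -0.07). Over all genes tested the shares were 24.6% higher and 22.5% lower. H2-Aa fell from 18554 ± 807 to 16136 ± 465, H2-Oa from 895 ± 19.2 to 573 ± 56.8 and H2-Ob from 4860.3 ± 163 to 3645 ± 98.9, while the lysosomal genes Ctss, from 5365 ± 282 to 8256 ± 689, and Ifi30, from 1683 ± 47.9 to 2525 ± 95.9, rose. Cd74 and H2-Aa were named after their values were seen.

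Among 12135 protein-coding genes, those whose values over the 6 libraries were most like those of Nlrc5 were Cog1, Atxn2, Zfp384, Nfatc2 and Pkd1. Their root mean square differences from Nlrc5, after each gene was centred on its own mean, were 0.012 to 0.015 on the log2 scale.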
